A study of Drosophila melanogaster with 5 samples.

Results

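The genes described here encode the proteasome of Drosophila melanogaster and the testis-type copies of its subunits, as measured by RNA-seq of whole ovaries. Members were taken by their symbol in the deposited table, Prosalpha, Prosbeta, Rpn or Rpt followed by a subunit number, which gave 47 of 14094 genes. A symbol that ends in T, T1, T2, R, R1 or R2 marked a paralog, so that 32 genes were canonical subunits and 15 were paralogs of 11 of them. The ovaries came from adults dissected 1 to 3 days after eclosion. The tested genotype was a knockout labelled BEAF 32-AB KO, with 2 libraries, and the control was labelled nosGAL4;MKRS/TM6, with 3 libraries. nosGAL4 expresses the GAL4 activator in the germline from nanos sequences, and MKRS and TM6 are balancers of chromosome 3, absent from the label of the knockout. BEAF-32 is a DNA-binding insulator protein often found close to gene starts, and the series title names genome organization, nuclear pore complexes and germline differentiation as the subject.

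The proteasome degrades proteins that carry ubiquitin chains. Its core particle is a barrel of stacked rings, in which the outer rings of alpha subunits gate the channel and the inner rings of beta subunits hold the proteolytic sites, on Prosbeta1, Prosbeta2 and Prosbeta5. The regulatory particle sits on the barrel: its base holds a ring of Rpt ATPases, which unfold the substrate, with the scaffolds and ubiquitin receptors Rpn1, Rpn2, Rpn10 and Rpn13, and its lid holds Rpn11, the enzyme that cuts the ubiquitin chain off. In Drosophila, several subunits have duplicate genes that are expressed mainly in the male germline, among them Prosalpha6T, which is needed for sperm formation.

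The knockout libraries held 38820176 and 47805964 estimated counts. The controls held 41105107, 8448850 and 10388643, so that controls 2 and 3 were shallow and no knockout library was. Values are counts per 1000000 counts of the library (CPM), and a fold change is log2, knockout minus control, from edgeR's quasi-likelihood test over 9241 genes. Genes with a Benjamini-Hochberg adjusted p under 0.05 count as called. By this rule 41.5% of all tested genes were called, 22.7% higher and 18.7% lower in the knockout, and over all tested genes, called or not, the fold changes had a median of 0.11. BEAF-32 itself was at 50.2 and 52.8 CPM in the knockout, against 84.9, 136 and 144 CPM in the control (-1.19, SE 0.26, edgeR adjusted p = 0.0157), a call lost on leaving out knockout 1 (adjusted p = 0.107) or leaving out knockout 2 (adjusted p = 0.126). With a term for depth class BEAF-32 changed by -0.70. That fit compares the knockout with control 1 alone, the only deep control. Control 1 stood apart from the other controls for many genes described here, so counts are also given without it. Whether libraries of a genotype were dissected from different flies is not labelled, so p-values reflect only how these libraries vary, which may be technical.

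None of the 32 canonical subunits was called in either direction, with 0 higher and 0 lower by edgeR, against 41.5% called over all tested genes. None reached an unadjusted p under 0.05 by edgeR or limma-voom, while DESeq2 gave 5 and called 1, Prosbeta5. DESeq2 called 49.9% and limma-voom 47.7% of all tested genes. The smallest adjusted p by edgeR was 0.12. Fold changes ran from -0.59 for the lid subunit Rpn8 to 0.30 for the core subunit Prosbeta3, with a median of -0.22, and 24 of 32 were below 0. The median size of the change, regardless of sign, was 0.23 for canonical subunits and 0.80 for all tested genes. These sizes are not matched for abundance. The subunits lay at 77 to 438 CPM, whereas the tested genes include those of low counts, whose fold changes vary more. Of the 3598 tested genes with a mean of at least 50 CPM, 40.4% were called. The median size for those genes was not computed. For 26 of the 32, the 95% interval of the log2 fold change lay between -1 and 1. For the other 6 it reached below -1, so that a lower level in the knockout by more than a log2 unit was not bounded for them.

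The canonical subunits were abundant in every library. Together they took 0.532% and 0.573% of the counts in the knockout, against 0.574%, 0.696% and 0.696% in the control. The knockout libraries were below all controls in this sum, but knockout 2 and control 1 differed by little, at 5728 and 5737 CPM. Levels can be compared between subunits only per length, as CPM divided by the exon length in kilobases (RPKM). On that scale all 32 subunits were above the median of the tested genes in each of the 5 libraries. The highest subunit exceeded the lowest by a factor of 2.71 and 3.06 in the knockout libraries and of 2.95, 3.01 and 3.43 in the control libraries. Rpn13, a ubiquitin receptor, was lowest in 4 libraries, at 67.5 and 69.7 RPKM in the knockout and 83.1 and 77.1 RPKM in controls 2 and 3. In control 1 the lowest was the ATPase Rpt3, at 74.7 RPKM. By mean RPKM, the order in the control began with the catalytic subunit Prosbeta5 (180 RPKM in the knockout and 239 in the control), followed by Prosalpha6 (183 RPKM in the knockout and 224 in the control) and Prosalpha7 (166 RPKM in the knockout and 216 in the control). Each pair of neighbours in the control order differed by less than the larger SD of the pair over the 3 controls.

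**Figure D1:**
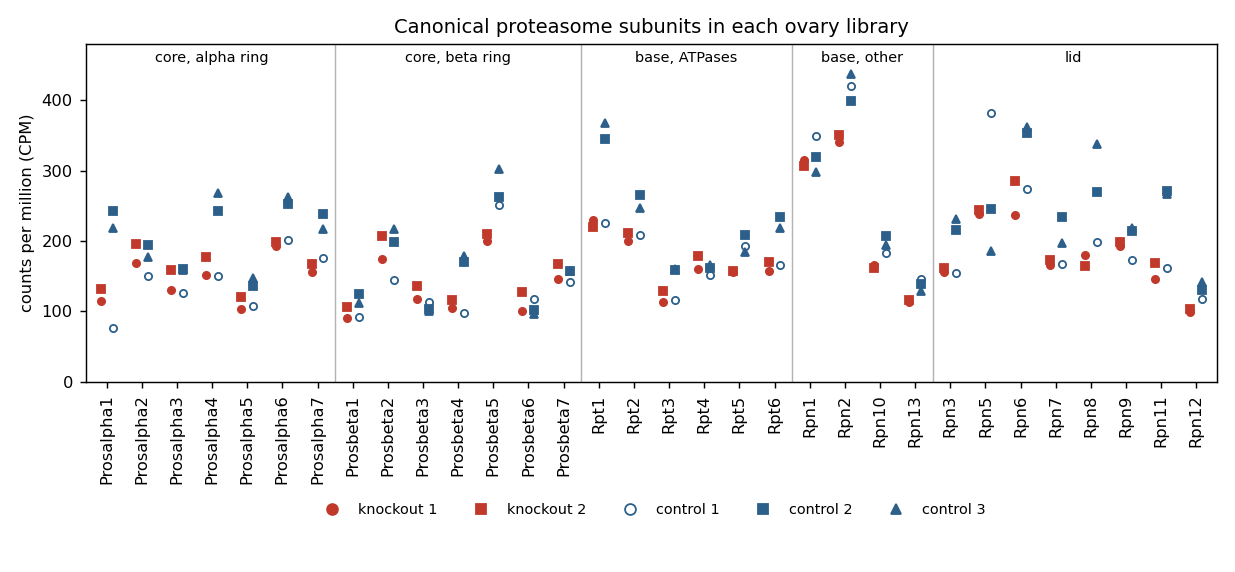
Levels of the 32 canonical subunits in CPM (vertical axis), one column per gene, grouped by their place in the complex. Red symbols are the 2 knockout libraries and blue symbols the 3 controls, with control 1 as open circles. The knockout lies within or near the range of the controls, and for many genes controls 2 and 3 lie above control 1.

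In the alpha ring, the median of the 7 fold changes was -0.24, and the intervals of all 7 included 0. Prosalpha6 was at 193 and 199 CPM in the knockout, against 202, 253 and 263 CPM in the control (-0.24, SE 0.18, edgeR adjusted p = 0.321). Prosalpha7 was at 155 and 168 CPM in the knockout, against 176, 238 and 217 CPM in the control (-0.34, SE 0.18, edgeR adjusted p = 0.188). For both genes the groups did not overlap, and control 1 was the control nearest to the knockout. Prosalpha2, at 169 and 196 CPM in the knockout, against 150, 194 and 177 CPM in the control, and Prosalpha3, at 131 and 159 CPM in the knockout, against 126, 161 and 159 CPM in the control, had overlapping groups. Prosalpha4 (-0.39) and Prosalpha5 (-0.18) overlapped as well.

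In the beta ring the median of the 7 fold changes was 0.07, with 4 above 0. Among the subunits with proteolytic sites, Prosbeta5, of chymotrypsin-like activity, was at 200 and 210 CPM in the knockout, against 251, 263 and 302 CPM in the control. Its knockout libraries lay below all controls (-0.36, SE 0.17, edgeR adjusted p = 0.135), and DESeq2 called it lower (-0.37, adjusted p = 0.0427). Prosbeta1, of caspase-like activity, was at 90.6 and 106 CPM in the knockout, against 92.3, 125 and 113 CPM in the control. Prosbeta2, of trypsin-like activity, was at 174 and 207 CPM in the knockout, against 144, 199 and 218 CPM in the control. Groups overlapped for both. Prosbeta3, which has no active site, was the only canonical subunit with both knockout libraries above all controls, at 117 and 136 CPM in the knockout, against 113, 103 and 101 CPM in the control (0.30, SE 0.15, edgeR adjusted p = 0.161).

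Of the 6 ATPases of the base, 5 had a fold change below 0 and Rpt4 one of 0.13, with a median of -0.25. Rpt5 was at 155 and 157 CPM in the knockout, against 193, 209 and 184 CPM in the control (-0.28, SE 0.16, edgeR adjusted p = 0.203), and its groups did not overlap. Rpt1 was at 229 and 220 CPM in the knockout, against 226, 345 and 368 CPM in the control (-0.43, SE 0.25, edgeR adjusted p = 0.211). Here control 1 lay between the knockout libraries. Of the other base subunits, Rpn2, a scaffold, was at 340 and 351 CPM in the knockout, against 420, 399 and 438 CPM in the control (-0.24, SE 0.16, edgeR adjusted p = 0.275). The ubiquitin receptors Rpn10 (-0.20) and Rpn13 (-0.22) also had both knockout libraries below all controls, whereas Rpn1 (-0.01) overlapped.

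The lid had the lowest median of the 5 groups of subunits, -0.29 over 8 genes. Rpn8, the structural partner of Rpn11, was at 180 and 165 CPM in the knockout, against 198, 270 and 337 CPM in the control (-0.59, SE 0.26, edgeR adjusted p = 0.12). Rpn11, the deubiquitinase, was at 146 and 169 CPM in the knockout, against 162, 271 and 268 CPM in the control (-0.53, SE 0.26, edgeR adjusted p = 0.152). Only Rpn8 of these had groups that did not overlap. Rpn12 was at 99.3 and 103 CPM in the knockout, against 117, 131 and 141 CPM in the control (-0.32, SE 0.16, edgeR adjusted p = 0.159). Rpn5, a scaffold subunit, had the largest SD among controls in CPM, at 238 and 245 CPM in the knockout, against 383, 246 and 185 CPM in the control. Over the canonical subunits taken by symbol, groups did not overlap for 10 of 32, 9 below and 1 above. The lid subunit Sem1 is not among them and is described further on. Groups did not overlap for 68.1% of all tested genes, with the knockout above for 37.6% and below for 30.5%, as shares of all tested genes.

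**Figure D2:**
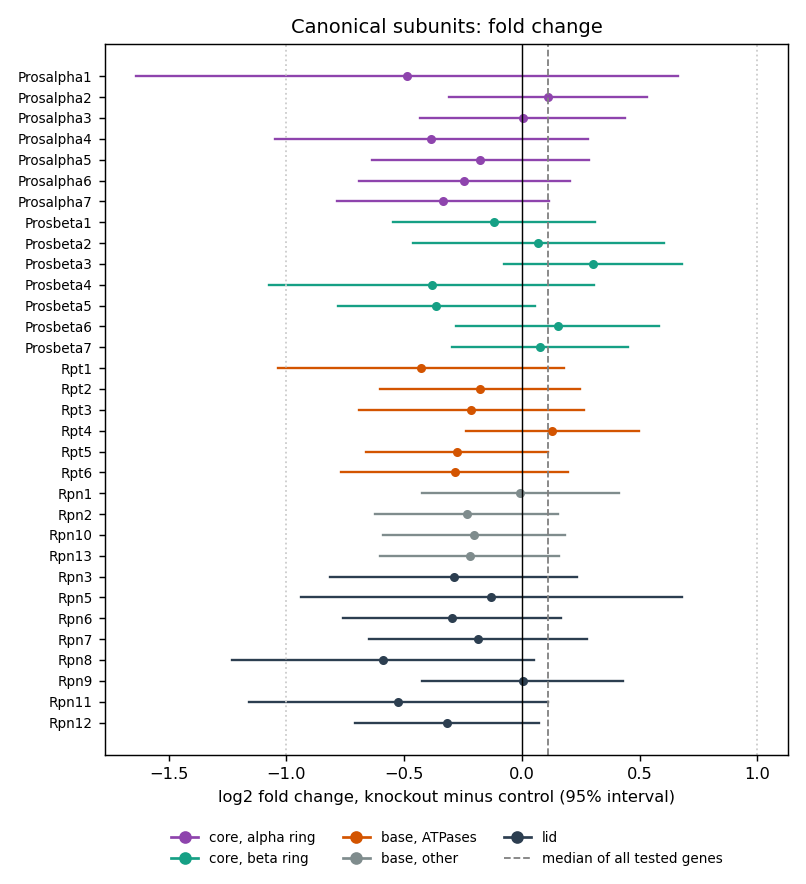
Log2 fold change, knockout minus control, of each canonical subunit (horizontal axis) with its 95% interval from edgeR, coloured by place in the complex. All 32 intervals include 0, 24 of 32 points lie below it, and the dashed line marks the median of all tested genes at 0.11.

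Of the libraries left out in turn, only control 1 changed the number of canonical subunits called. Without it, 16 of 32 were called, 15 lower and 1 higher, where 68.6% of all tested genes were called. The lowest were then Prosalpha1 (-0.85, adjusted p = 0.000146), Rpn8 (-0.77, adjusted p = 0.00176) and Rpn11 (-0.73, adjusted p = 0.000391 by edgeR), and the higher one was Prosbeta3 (0.36, adjusted p = 0.0146). In a fit that adds a term for depth class, in which control 1 is the only deep control, the median of the 32 was 0.01, and 3 were called, against 54.7% of all genes. These were Rpn5, lower (-0.65, adjusted p = 0.0121), and Prosbeta2 (0.42, adjusted p = 0.0398) and Prosalpha1 (0.69, adjusted p = 0.00293 by edgeR), higher.

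Prosalpha1 is uncertain, because a copy of it lies close by and reads may be shared between them. It was the only member with a count more than 0.01 from a whole number, as arises when reads are divided between genes. The copy is listed as CG30382 in the deposited table, and as Prosalpha1R in the Ensembl and RefSeq annotations. It therefore did not enter by symbol. Both genes lie on chromosome arm 2R on the minus strand in dm6 coordinates, Prosalpha1 from 7827303 to 7828678 and CG30382 from 7830413 to 7831771, with 1734 bases between them. CG30382 took 35.0% and 33.4% of the joint counts in the knockout libraries, against 58.1%, 0% and 0% in the controls. In the shallow controls all of the joint counts, 2046 and 2267, were assigned to Prosalpha1. The sum of both genes was 177 and 198 CPM in the knockout, against 184, 242 and 218 CPM in the control. Added together, a choice made after seeing the data, they changed by -0.15 (SE 0.18, adjusted p = 0.519 by edgeR, 95% interval -0.58 to 0.28), against -0.49 (SE 0.47) for Prosalpha1 as deposited. Whether the calls of Prosalpha1 without control 1 and with depth class as a term hold for the sum was not tested.

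**Figure D3:**
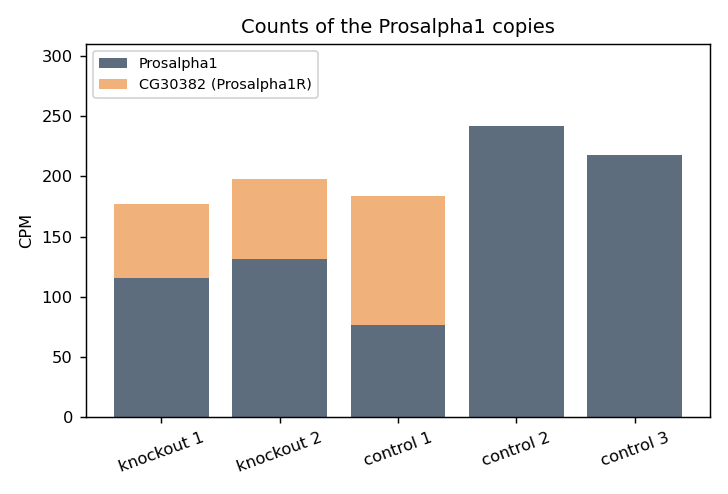
CPM of Prosalpha1 (dark grey) and its copy CG30382 (orange), stacked, in each library (horizontal axis, knockout 1 and 2, then control 1 to 3). The copy holds 35.0% and 33.4% of the joint counts in the knockout and 58.1% in control 1, and is at 0 in controls 2 and 3.

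The paralogs were far below their canonical partners. Together the 15 made up 0.153% and 0.132% of all member counts in the knockout, against 0.0987%, 0.0459% and 0.0498% in the control. The groups did not overlap, and with 2 against 3 libraries an exact permutation test cannot give a two-sided p under 0.1. Most of the control counts were those of Rpt3R. Without it, a choice made after seeing the values, the shares were 0.114% and 0.0802% in the knockout, against 0.00212%, 0% and 0% in the control. Most of the remaining knockout counts were those of a single gene, Rpt6R, with 172 and 146. Of the 15, 4 were at 0 in all 5 libraries: Prosalpha3T, Prosalpha4T1, Prosalpha6T and Prosbeta4R1. Counts were found for 11 paralogs in the knockout and for 4 in the control, and in the shallow controls for Rpt3R only. A count of 3 corresponds to 0.0628 CPM in the deepest library and to 0.355 CPM in the shallowest, so a paralog below that level could be missed in controls 2 and 3.

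Only 4 paralogs had enough counts to be tested, and 3 of them were called, all higher in the knockout, where 22.7% of tested genes were called higher. A gene with counts in the knockout alone passes the count filter through the knockout, so nothing is read from this share. Rpt6R, a copy of the ATPase gene Rpt6, lies on chromosome arm 3R from 30582198 to 30583697 (dm6, minus strand). It had 172 and 146 counts in the knockout, or 4.43 and 3.05 CPM, against 1, 0 and 0 counts in the control. With counts and library totals each pooled within a group, the ratio of knockout to control was 220. Its exact 95% counting interval was 39.2 to 8720 (adjusted p = 0.00238 by edgeR). It is not the ratio of the mean CPM values of the libraries. Both knockout libraries stood far above every control. Rpt6R made up 2.74% (95% exact binomial interval 2.35 to 3.17) and 1.76% (1.49 to 2.07) of the joint counts of Rpt6 and Rpt6R in the knockout. In the control that share was 0.0147%, 0% and 0%, with upper limits of the same interval of 0.186% and 0.163% in controls 2 and 3.

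Rpt4R, a copy of the ATPase gene Rpt4, lies on arm 3L from 11941912 to 11943485 (plus strand). It had 26 and 36 counts in the knockout, or 0.67 and 0.75 CPM, and 0 in all 3 controls. Pooled in the same way, and against a floor of 3 counts over the control group, it was 14.3-fold higher in the knockout (adjusted p = 0.0254 by edgeR). This floor ratio leaves out counting error in the knockout. Prosbeta2R2, a copy of the gene of the trypsin-like subunit, lies on arm 3R from 5217751 to 5219528 (minus strand). It had 17 and 19 counts in the knockout, or 0.44 and 0.40 CPM, against 2, 0 and 0 counts in the control. The pooled ratio was 12.5, with a counting interval of 3.21 to 107 (adjusted p = 0.0418 by edgeR). The intervals cover counting error only. Both genes were similar in the 2 knockout libraries and at or near 0 in the controls.

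These calls depended on the setting to unlike degrees. Each of these genes passed the count filter through the knockout, the group where it is high. The adjusted p-values and the numbers of settings below are therefore description, not support for a difference. Of the 15 alternatives, the one that adds Prosalpha1 and CG30382 leaves the counts of these paralogs unchanged. It is included in the numbers below for each of them, but says nothing of how a call depends on the setting. Rpt6R was called under 14 of 15 alternatives and lost its call without knockout 1 (adjusted p = 0.0544). Rpt4R was called under 12 of 15, DESeq2 and limma-voom among them, and lost its call when knockout 1 (adjusted p = 0.2) or knockout 2 was left out (adjusted p = 0.191), and with a replicate block (adjusted p = 0.0502). Prosbeta2R2 was called under 6 of 14 alternatives, by limma-voom (adjusted p = 0.0147) and under the other scalings, but not by DESeq2 (adjusted p = 0.0918), without the count filter (adjusted p = 0.0808), with a replicate block (adjusted p = 0.244), with a term for depth class (adjusted p = 0.0926) or without any 1 of knockout 1, knockout 2, control 2 and control 3 (adjusted p = 0.063 to 0.282). Without control 1 it did not pass the filter. Of all tested genes, 9.46% were called without knockout 1, 11.1% without knockout 2, 31.4% without control 2, 32.1% without control 3 and 35.3% with the block. The share was 28.6% without the count filter, 38% with scaling over germline markers, 40.8% with library totals, and 41.4% with RLE scaling and with TMM without rRNA genes.

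Rpt3R, a copy of the ATPase gene Rpt3 on arm 3R (9754735 to 9756510, minus strand), had counts in all 5 libraries. They were 81 and 143 in the knockout and 228, 27 and 36 in the control, so they were not limited to the knockout. No testis was sampled, so the name testis-type is not judged here. The level of Rpt3R was 2.09 and 2.99 CPM in the knockout, against 5.55, 3.20 and 3.47 CPM in the control (-0.66, SE 0.48, edgeR adjusted p = 0.31). The knockout libraries lay below all controls, with knockout 2 close to control 2. Rpt3R made up 1.81% and 2.26% of the joint counts of Rpt3 and Rpt3R in the knockout, and 4.56%, 1.98% and 2.11% in the control, so control 1 alone stood apart in this share. An exon of Rpt3R overlaps one of Alg12 on the opposite strand, which was at 743 and 1109 counts in the knockout and 980, 174 and 211 in the control. The strand setting of the counting is not given in the sources used here. Some or all of the counts of Rpt3R may therefore be reads of Alg12, which was not tested.

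The other 7 paralogs with counts were not tested. Rpn13R, a copy of the ubiquitin receptor gene, had 6 and 10 counts in the knockout against 2, 0 and 0 in the control. The pooled ratio was 5.54 (counting interval 1.3 to 49.6). Rpn13R overlaps 2 larger genes on the same strand, CG15465 and rg, without sharing an exon, and both had counts in all libraries. Prosbeta5R1 had 3 and 4 counts in the knockout and 0 in the controls, 1.61-fold above the floor. Prosbeta5R2 had 5 and 0 counts in the knockout and Prosalpha4T2 had 0 and 5, each with 0 in the controls and 1.15-fold above the floor. These floor ratios, pooled in the same way, leave out counting error in the knockout, so no difference is read from them. Prosbeta2R1, Prosbeta4R2 and Rpn12R had 2 counts each, all in knockout 1, which is within the floor.

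**Figure D4:**
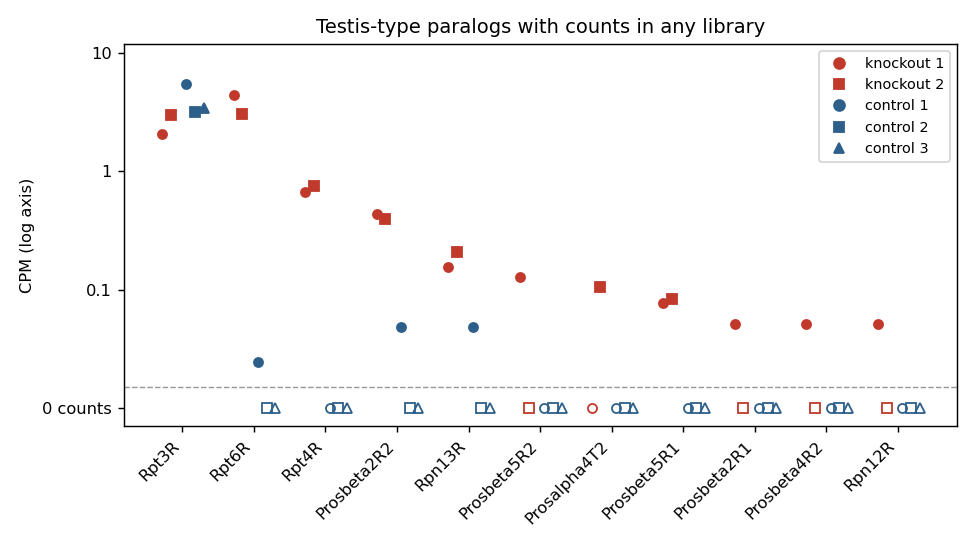
CPM (vertical log axis) of the 11 paralogs with counts in any library, ordered by their highest value, with red symbols for the knockout and blue for the control. Open symbols below the dashed line stand for 0 counts. Rpt3R is present in all 5 libraries, and Rpt6R, Rpt4R and Prosbeta2R2 are present in both knockout libraries and at or near 0 in the controls.

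The stocks differ in more than BEAF-32. All 4 tested paralogs, the 3 called ones among them, lie on chromosome 3, so a called paralog could not lie elsewhere. In all, chromosome 3 holds 7 of 15 paralogs and 14 of 32 canonical subunits. This is the chromosome for which the control carries balancers, so for these genes the BEAF-32 alteration and the chromosome 3 background cannot be told apart. For genes on every chromosome, the alteration likewise cannot be told apart from other differences between the stocks, such as nosGAL4 in the control label. The median log2 fold change of canonical subunits was -0.07 on chromosome 3 and -0.29 elsewhere. The same split was not made for all tested genes, so nothing is read from it. On chromosome arm 2R, Rpn6 lies 17559 bases from BEAF-32 and was not called, at 237 and 285 CPM in the knockout, against 274, 353 and 363 CPM in the control (-0.30, SE 0.19, edgeR adjusted p = 0.25).

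Markers of testis were read beside the paralogs. Of 48 listed genes in the table, 13 could be tested, 4 of which were called higher and 1 lower, where 22.7% of all tested genes were called higher and 18.7% lower. As with the paralogs, a marker with counts in the knockout alone passes the count filter through the knockout. Nothing is therefore read from this share. The list's sum of 310 and 320 CPM in the knockout, against 110, 97.6 and 97.8 CPM in the control, came mostly from a pair of genes. Pif1A was at 232 and 230 CPM in the knockout, against 24.3, 8.87 and 12 CPM in the control, and m-cup at 32.7 and 36.3 CPM in the knockout, against 64.0, 71.6 and 69.3 CPM in the control. Without them, a choice made after seeing the values, the sum was 44.8 and 53.1 CPM in the knockout, against 21.3, 17.2 and 16.5 CPM in the control. Without achi, vis and mia as well, it was 11 and 5.77 CPM in the knockout, against 2.58, 2.72 and 2.12 CPM in the control. The meiotic arrest gene aly had 16 and 14 counts in the knockout and 0 in the controls, and mia was at 6.03 and 8.32 CPM in the knockout against 0.92, 0.47 and 1.83 CPM in the control. The testis tubulin betaTub85D had 17 and 24 counts in the knockout and 5, 0 and 4 in the control. Of the list, 27 genes were at 0 in all controls and 7 in all 5 libraries. Traces were uneven between the knockout libraries: 16 testis markers had counts in knockout 1 only, 1 in knockout 2 only and 24 in both. Of the paralogs, 4 had counts in knockout 1 only, 1 in knockout 2 only and 6 in both. The part of these transcripts in the paralog values was not tested.

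Markers of the cell types of the ovary and its surroundings also differed between the genotypes, and their calls stand beside the same 22.7% higher and 18.7% lower over all tested genes. The 19 germline markers in the table summed to 3567 and 3793 CPM in the knockout, against 8467, 8533 and 8070 CPM in the control, with 5 called higher and 4 lower. The most abundant of them were tral and me31B, which act on stored mRNA in the egg chamber. tral was at 995 and 935 CPM in the knockout, against 3501, 3502 and 3966 CPM in the control. me31B was at 461 and 543 CPM in the knockout, against 2645, 3213 and 2486 CPM in the control. This pair held most of the control sum, whereas the median fold change of the 19 germline markers was 0.20. The 13 markers of ovarian somatic cells, led by peb and Fas3, summed to 1498 to 1598 CPM in the knockout, against 276 to 426 CPM in the control, with 9 of 12 tested called higher and 0 lower. The 10 muscle markers, led by Act57B and Mhc, summed to 5304 to 5408 CPM in the knockout, against 944 to 1261 CPM in the control, with 8 higher and 0 lower. Markers of fat body, hemocytes and matrix, led by Col4a1 and vkg, summed to 5144 to 6463 CPM in the knockout, against 482 to 675 CPM in the control, with 4 of 6 tested higher and 0 lower. The spermatheca gene Send1 was at 13.7 and 4.87 CPM in the knockout, against 0 in the controls, and Send2 had 5 and 1 counts in the knockout and 0 in the controls. In bulk tissue, fewer cells of a type and less RNA per cell cannot be told apart, and the part of these shifts in the proteasome values was not tested.

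Of 19 tested partners and regulators of the proteasome, 1 was called higher and 3 lower, where 41.5% of all tested genes were called, with a median of -0.31. Sem1, the small lid subunit that the symbol rule leaves out, was at 56.3 and 56.6 CPM in the knockout, against 86.8, 232 and 209 CPM in the control (-1.59, SE 0.43, edgeR adjusted p = 0.0303). Uch-L5, a deubiquitinase that docks on Rpn13, fell (-0.87, SE 0.25, edgeR adjusted p = 0.0351). So did ntc, an F-box protein that works with the proteasome regulator PI31 in Drosophila sperm formation (-0.70, SE 0.21, edgeR adjusted p = 0.0402). Keap1, which restrains the transcription factor cnc, an activator of proteasome genes, was at 21.7 and 27 CPM in the knockout, against 12.5, 12.1 and 5.97 CPM in the control, and rose (1.29, SE 0.35, edgeR adjusted p = 0.0302). All 4 lost their calls without either knockout library (adjusted p = 0.15 to 0.236), and Sem1 was highest in controls 2 and 3. With depth class as a term, so against control 1 alone, Sem1 changed by -0.60 and Uch-L5 by -0.43. Without control 1, 12 of the 19 were called, 11 lower and 1 higher, against 0 without control 2 and 2 without control 3. Over all tested genes, 68.6% were called without control 1, 31.4% without control 2 and 32.1% without control 3.

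The remaining partners named here were not called. cnc was at 259 and 335 CPM in the knockout, against 418, 324 and 311 CPM in the control (-0.21, SE 0.21, edgeR adjusted p = 0.465). The assembly chaperone Pomp (-0.31, adjusted p = 0.408), the regulator PI31 (-0.35, adjusted p = 0.191) and the activator REG (-0.06, adjusted p = 0.895 by edgeR) had overlapping groups. The segregase TER94 (-0.45, adjusted p = 0.0856) and the ubiquitin shuttle Ubqn (-0.36, adjusted p = 0.121 by edgeR) had both knockout libraries below all controls. With depth class as a term, so against control 1 alone, REG changed by 0.59 and cnc by -0.48. Without control 1, Pomp (-0.53, adjusted p = 0.00368), PI31 (-0.48, adjusted p = 0.00843), TER94 (-0.54, adjusted p = 0.00396) and Ubqn (-0.40, adjusted p = 0.0134 by edgeR) were called lower, and DESeq2 called TER94 (adjusted p = 0.0181) and Ubqn (adjusted p = 0.0152) lower in all libraries.

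The COP9 signalosome, a complex built like the lid, had 0 of 8 tested members called by edgeR, DESeq2 and limma-voom, and 0 at an unadjusted p under 0.05 by edgeR, where these tools called 41.5%, 49.9% and 47.7% of all tested genes. Its median was -0.08. Its subunit alien was at 117 and 121 CPM in the knockout, against 110, 129 and 123 CPM in the control (0.03, SE 0.15, edgeR adjusted p = 0.901), and CSN1b was at 71.8 and 69.6 CPM in the knockout, against 76.6, 89.2 and 82.7 CPM in the control (-0.18, SE 0.15, edgeR adjusted p = 0.372). Genes that supply and attach ubiquitin had 13 of 32 tested members called, 2 higher and 11 lower, where 22.7% of all tested genes were higher and 18.7% lower, with a median of -0.26. APC7, of the anaphase-promoting complex, was at 24.6 and 32.2 CPM in the knockout, against 99.5, 161 and 191 CPM in the control (-2.37, SE 0.32, edgeR adjusted p = 0.00346). Cul1, the scaffold of a family of ubiquitin ligases, was at 241 and 244 CPM in the knockout, against 527, 638 and 626 CPM in the control (-1.25, SE 0.17, edgeR adjusted p = 0.00377). The conjugating enzyme vih (-1.25, adjusted p = 0.00485) and Cul5 (-1.01, adjusted p = 0.00499 by edgeR) fell as well. RpS27A, a fusion of ubiquitin and a ribosomal protein (0.43, adjusted p = 0.167), and the conjugating enzyme eff (-0.70, adjusted p = 0.0748 by edgeR) were not called. Without knockout 1 or without knockout 2, 1 of the 32 was called, 8 without control 2, and 21 without control 1, 6 higher and 15 lower. Over all tested genes, 31.4% were called without control 2 and 68.6% without control 1. With either knockout library left out, far fewer than 41.5% were. DESeq2 and the fit without control 1 called eff lower. With depth class as a term, so against control 1 alone, RpS27A changed by 0.78.

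Gene structure and position were read from the annotation. Canonical subunits had a median of 2 introns (0 to 4, with 4 of 32 genes lacking introns), and paralogs a median of 1 (0 to 2, with 6 of 15 lacking introns). Of the 32 canonical subunits, 18 (56.2%) had a protein-coding neighbour on the other strand whose start lay within 500 bases in a divergent arrangement, as did 32.9% of tested protein-coding genes. Of the 15 paralogs this held for Prosbeta2R2 alone. All 18 neighbours were tested, and 11 were called, 4 higher and 7 lower, where 41.5% of all tested genes were called. Without knockout 1 the count was 2, without knockout 2 it was 3, with the replicate block 6, and without control 1 it was 16. Over all tested genes, 35.3% were called with the block and 68.6% without control 1. With either knockout library left out, far fewer than 41.5% were. None of the subunits beside these neighbours was called in the comparison of all 5 libraries. The median size of the change, regardless of sign, was 0.70 for the neighbours and 0.24 for the subunits beside them, against 0.80 for all tested genes. These sizes are not matched for abundance either.

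The neighbours named next were chosen after their values were seen, for their fold change. dgo, whose start lies 94 bases from that of Prosbeta5, changed by -3.73 (SE 0.22, adjusted p = 0.000488 by edgeR), beside -0.36 for Prosbeta5. Npc1a, a sterol transporter 135 bases from Prosalpha6, rose by 2.20 (SE 0.19, adjusted p = 0.000975 by edgeR), beside -0.24 for Prosalpha6. Slbp, the histone mRNA binding protein 258 bases from Rpn2, changed by -1.29 (SE 0.19, adjusted p = 0.00448 by edgeR), beside -0.24 for Rpn2, and Slbp, unlike dgo and Npc1a, lost its call on leaving out knockout 1 (adjusted p = 0.0592) or leaving out knockout 2 (adjusted p = 0.0642). Exons of 13 canonical subunits overlapped exons of another gene, for example Prosalpha1 with phr, and since the strand setting of the counting is not given in the sources used here, reads of such partners may be divided between them. Whether BEAF-32 binds at these starts was not analysed here.

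**Figure D5:**
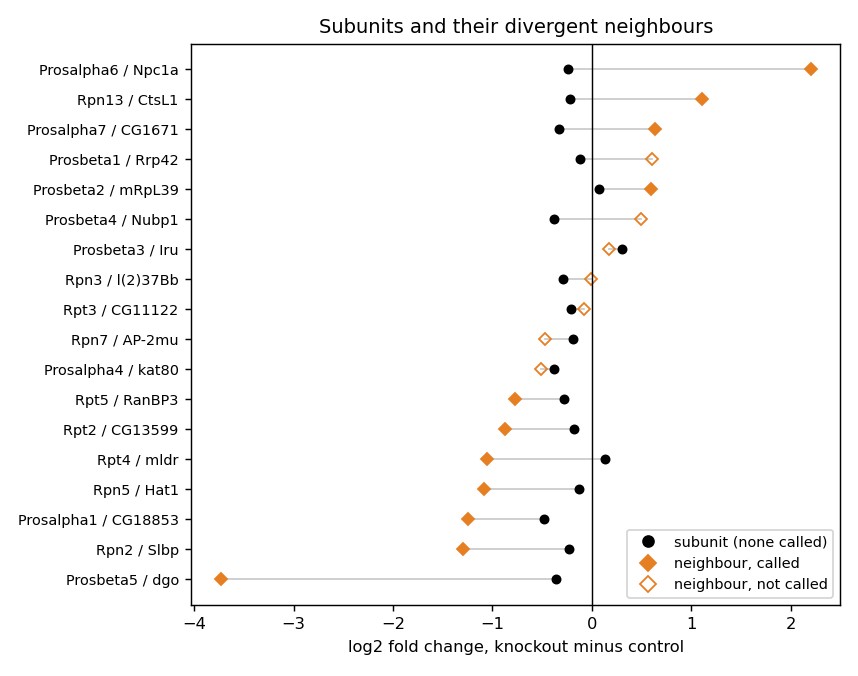
Log2 fold change, knockout minus control (horizontal axis), of 18 canonical subunits (black circles) and their divergent neighbours within 500 bases (orange diamonds, filled where called), one row per pair. The subunits lie close to 0, and the neighbours run from -3.73 for dgo to 2.20 for Npc1a.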

How the data were processed

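Ovary RNA was isolated by Trizol and sequenced from a directional kit, per the labels' protocols. The submitters' processing notes name FastQC 0.11.8, Trim Galore 0.6.6, STAR 2.7.5b, Salmon 1.2.1 and dm6; order, settings, annotation and strand setting are not given in the sources used here. Unscaled estimated counts for each gene in 5 libraries were deposited as 1 table, whose columns match the sample descriptions.

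Counts were rounded, filtered with filterByExpr (9241 of 14094 genes) and scaled by TMM. Knockout minus control was fitted without covariates in edgeR 4.0.16 (glmQLFit, robust, glmQLFTest) in R 4.3.3. DESeq2 1.42.0 and limma-voom (limma 3.58.1) were alternatives, with other scalings, no filter, each library left out, a replicate block and depth class. SE is the size of the fold change over the square root of F, and 95% intervals use the fit's t distribution. RPKM uses union exon lengths from the Ensembl annotation, where all 47 members were found. Floors are 3 counts. Ratios between groups for paralogs pool counts and library totals within each group. The methods were tested on simulated data. No pair of libraries matched within sampling noise (lowest chi-square/df 12.5, for controls 2 and 3).

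All 47 members are accounted for. Of partner lists, at most 4 called genes of smallest p and 2 uncalled of highest CPM were named, and of marker lists the 2 of highest CPM; BEAF-32, Pomp, PI31, ntc, REG and cnc were named whatever their result, and mia, aly, betaTub85D and the neighbours after their values were seen. Members and lists were chosen with earlier results of these data known. Promoter and protein sequences were not used here, so the planned motif search and protein identities were not run.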

Additional observations from a re-analysis of the deposited data

How the results depend on the processing

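The absence of calls among canonical subunits held under 12 of 15 alternatives; DESeq2 called 1 and the fit with depth class as a term 3, and leaving out 1 library gave 0 to 16, the highest without control 1. Called paralogs numbered 3, and 0 to 2 with 1 library left out, 0 without knockout 1 and 1 without knockout 2. All genes called numbered 3831, and 878 to 6083 with 1 library left out. Called partners and regulators numbered 4, against 7 with DESeq2, 9 with depth class as a term and 0 to 12 with 1 library left out. Of the COP9 signalosome 1 was called with depth class as a term, and 0 to 1 with 1 library left out, and of the ubiquitin list 1 to 21. Prosalpha1 (0.69) and REG (0.59) changed sign with depth class as a term, a fit that compares the knockout with control 1 alone. CG11122, the neighbour of Rpt3 (-0.08), was 0.68 and called without control 1, and ran from -0.46 to 0.68 over the libraries left out.

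The replicate number was also fitted as a replicate block, although the labels name no shared batch and the deviations of libraries with the same number correlated at 0.0577 and 0.0475. With the block 1 paralog, Rpt6R, was called, and 2 partners and regulators, and 3261 genes in all.

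Scaling moved the median of all tested genes between -0.08 (germline markers) and 0.11 (TMM), and the canonical median between -0.42 and -0.22, always 0.33 to 0.34 below that of all genes; with depth class as a term it was 0.13 below. Adding Prosalpha1 and CG30382, chosen after seeing the data, moved the counts of calls above by at most 1. Of 1302 single-gene values under alternatives, 1126 kept direction and side of the threshold, 79 lost a call, 40 gained one, and 54 uncalled ones, at most 0.24 in size, changed sign. Depth limits paralogs in controls 2 and 3.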
